A study of Mus musculus with 10 samples.

Results

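Of the 1080 mouse olfactory receptor genes that had a named probe on the array, 64 gave a signal in the testis that was well above background on at least 5 of 10 arrays, and these 64 genes are described here. A gene counted as an olfactory receptor where its probe's accession took a symbol of Olfr followed by digits. Above background means that the scanner software marked the spot as well above its local background. Where several probes of a gene passed, the brightest stood for it. The 64 genes were thus chosen by their own detection calls, which are given as a description and are not tested.

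The testes came from male C57BL/6N mice, an inbred strain, killed at 6 weeks (42 days) of age, and each array measured the RNA of a single testis. The 5 C animals were born to dams on freely available powdered chow and stayed with their own mothers. The 5 R animals were born to dams that were held to 50% of what control dams ate each day, from 6.5 days after mating, and they were fostered to unrelated control dams. Both groups ate regular chow freely after weaning, so fostering and the prenatal diet differ together and cannot be told apart. The comparison of R with C addresses undernutrition in the womb and the testis it leaves at 6 weeks. No litter is named in the labels, and every p-value takes the 10 testes as separate samples.

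Olfactory receptors are seven-helix membrane proteins that bind odorants, and in the nose each sensory neuron settles on a single receptor gene. Binding activates the G protein alpha subunit Golf, then adenylyl cyclase 3, and the cyclic AMP formed opens a cation channel of the cilium. Most receptor genes are transcribed only in the nose, but a minority have long been known from spermatids and sperm, where some have been studied as sensors for chemical cues, and others from kidney, gut, vessels and fat. Class I receptors resemble those of fish and lie in a single cluster on chromosome 7, while class II receptors are spread over many clusters. The MOR nomenclature sorts the genes into families by sequence.

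All values are log2 signals, that is, the log2 of the processed spot intensity minus the same array's 75th percentile. A value of 0 is thus the 75th percentile of the array, and a difference of 1 is a 2-fold difference. The brightness of a probe also depends on its own sequence, so signals are compared between groups for 1 gene and not between genes. The share of spots well above background ran from 56.6% to 67.4% over the arrays, and saturation did not occur. In bulk tissue, fewer cells of a type and less RNA per cell cannot be told apart.

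Detection was uneven along the family. Of the 1080 receptor genes, 822 were above background on no array, 156 on 1, 23 on 2, 6 on 3 and 9 on 4. The 64 members split into 12 on exactly 5 arrays, 2 on 6, 5 on 7, 8 on 8, 6 on 9 and 31 on all 10. Members made up 5.93% of the receptor genes, whereas 74.5% of other named genes reached 5 arrays. The brightest genes on exactly 5 arrays were Olfr706, Olfr215 and Olfr1008, with means over the 10 arrays of −4.62, −4.83 and −4.95. The brightest on exactly 4 arrays were Olfr541, Olfr1341 and Olfr1225, at −4.93, −4.99 and −5.04. As a description across different probes, the signals on both sides of the limit overlapped. Of the 9 genes on 4 arrays, Olfr541, Olfr1225, Olfr145, Olfr1347, Olfr1384 and Olfr1153 were each detected on 1 array of C and 3 of R. Olfr1341 was detected on 3 of C and 1 of R, and Olfr960 and Olfr1048 on 2 of each. Genes on exactly 5 arrays leaned both ways, from Olfr6 with 4 arrays of C and 1 of R to Olfr1500 with 1 and 4. No lean of detection to a group is read from these counts.

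**Figure D1:**
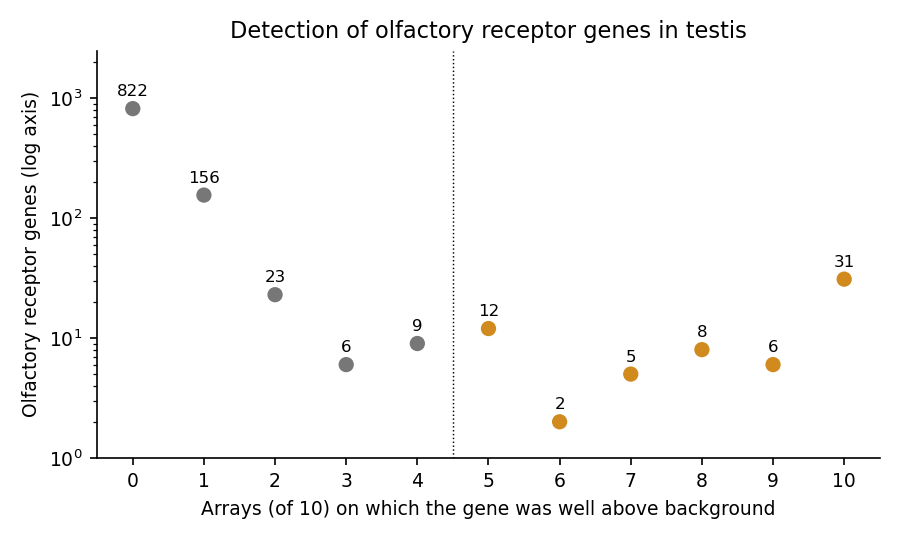
Number of olfactory receptor genes (vertical log axis) by the number of arrays, of 10, on which the gene was well above background (horizontal axis). The dotted line marks the limit of 5 arrays, with 64 genes to its right, and 31 of them sit at 10 arrays while 822 genes sit at 0.

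The number of receptor genes above background was similar in both groups. It was 87, 59, 88, 66 and 83 on C replicates 1 to 5 (76.6 ± 13.2, SD, n = 5) and 86, 107, 76, 56 and 85 on R replicates 1 to 5 (82.0 ± 18.5, SD, n = 5). The ranges overlapped almost entirely, with the highest and the lowest array both in the R group. No member was below background on every array of a group, though 6 members were above it on fewer than 3 C arrays and 9 on fewer than 3 R arrays.

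The 10 members with the highest signal are described one by one, and the ranking serves only to choose them. Olfr1033, a MOR199 gene of chromosome 2, was measured at 3.09, 3.03, 3.11, 3.08 and 3.02 in C and at 3.53, 3.66, 3.28, 3.39 and 3.45 in R. Every R array was above every C array. That probe belongs to a predicted transcript model, and a probe of the curated transcript averaged −4.75 in C and −4.80 in R. Olfr544, a receptor for azelaic acid that has been studied in fat and pancreatic islets, was at 0.57, 1.05, 0.53, 0.42 and 0.39 in C and at 0.56, 0.82, 0.53, 0.58 and 0.53 in R. Its groups overlapped, with C replicate 2 highest, and its difference was 0.01 ± 0.13 (SE, limma, adjusted p = 0.947). The fold in R over C was 1.01 with a 95% interval of 0.831 to 1.22.

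Olfr571, a class I receptor gene, was at 0.01, 0.01, 0.14, 0.01 and −0.07 in C and at 0.23, 0.39, 0.16, 0.25 and 0.33 in R. All 5 R values lay above the highest C value. Olfr114 was at −0.33, −0.15, −0.43, −0.31 and −0.22 in C and at −0.36, −0.39, −0.19, −0.42 and −0.61 in R, which overlapped (difference −0.11 ± 0.09, SE, adjusted p = 0.329). Olfr112, a gene of the same MOR218 family on chromosome 17, ranged from −2.42 to −1.12 in C and from −2.10 to −1.29 in R, with a difference of 0.07 ± 0.25 (SE, adjusted p = 0.850). Olfr279 averaged −1.71 ± 0.08 in C and −1.54 ± 0.08 in R (SD, n = 5 each). Its groups did not overlap, yet its difference of 0.17 missed the threshold (adjusted p = 0.0642) and passed it once slide was a block (adjusted p = 0.00742). The fit with a slide block called 51.5% of all tested genes.

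The remaining genes among the 10 were Olfr1443 and Olfr1294, described below with the genes that rose, and Olfr722 and Olfr124. Olfr722 had a difference of 0.09 ± 0.24 (SE, adjusted p = 0.769) between widely spread arrays, from −2.5 to −1.28. Olfr124, known as SR1 and as a broadly tuned receptor of the MOR256 family, averaged −2.24 ± 0.30 in C and −2.07 ± 0.24 in R (SD, n = 5 each), with C replicate 2 lowest and R replicate 5 highest. Its difference of 0.17 did not pass (adjusted p = 0.389), while a slide block gave 0.37 (adjusted p = 0.00806).

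The main comparison asked how the 64 members differ between R and C testes. With an adjusted p under 0.05 in limma over all probes, 16 of 64 members were called, 13 higher and 3 lower in R, which is 25% of the members. Over all 16738 tested genes 35.6% were called, 14.9% higher and 20.6% lower. Among 4790 other genes between the 10th and 90th percentile of the members' brightness 30.2% were called, 12.6% higher and 17.6% lower. Of those between the members' quartiles of brightness 25.8% were called, 11.7% higher and 14.1% lower. The overall share called was thus no higher among the receptors than among other genes, and the split by direction was 20.3% higher and 4.69% lower for the members.

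Members are detected by the same signal that is compared, so a dim gene can pass the detection limit through the group in which it is high. Of the 31 members above background on all 10 arrays, 8 were higher and 0 lower, beside 15.6% higher and 21.1% lower among all genes detected on 10 arrays. Of the 33 members on 5 to 9 arrays, 5 were higher and 3 lower. The median change over the members was 0.19, beside −0.03 over all tested genes and −0.01 over the other genes of that signal range. Those other genes were brighter at the median (−3.20) than the members (−4.05), and the genes between the quartiles lay at −3.84 with a median change of 0.01. The change was positive in 47 of 64 members. Without C replicate 2, 18 members were called, 15 of them higher, with a median change of 0.18, beside 34.1% of all tested genes called in that fit. Of the 49 members above background on at least 3 arrays of each group, 12 were higher and 1 lower. For these 49 and for the 33 on 5 to 9 arrays, no share over all genes under the same filter was taken. Over all tested genes 14.9% were higher and 20.6% lower.

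The direction counts depended on the scale. With each array's median in place of its 75th percentile, 31 of 64 changes were positive, 9 members were higher and 8 lower, and the median over all tested genes moved to −0.23. With quantile normalisation 34 changes were positive, 11 members were higher and 8 lower. Over all 33851 tested probes, 4029 were higher and 10568 lower with the array median. With quantile normalisation 6112 probes were higher and 7556 lower. The gap between the members' median and that of the other genes in their signal range was 0.21 with the 75th percentile, 0.21 with the array median and 0.23 with quantile normalisation, and it was 0.11 with normexp background correction. The array median shifts all genes of an array alike, so its gap was bound to equal that of the 75th percentile. Under normexp the members' median change was 0.08 and 19 members were called, beside 37.1% of all tested genes. All 16 called members kept their direction under the 4 scalings tried, but not all kept their call. With the array median 12 of them were still called, and Olfr1033, Olfr1444, Olfr1500 and Olfr571 were not. Quantile normalisation and normexp correction each kept 14 of the 16 calls. The shift by the array median was smaller than any called rise, so it could not turn a called sign.

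**Figure D2:**
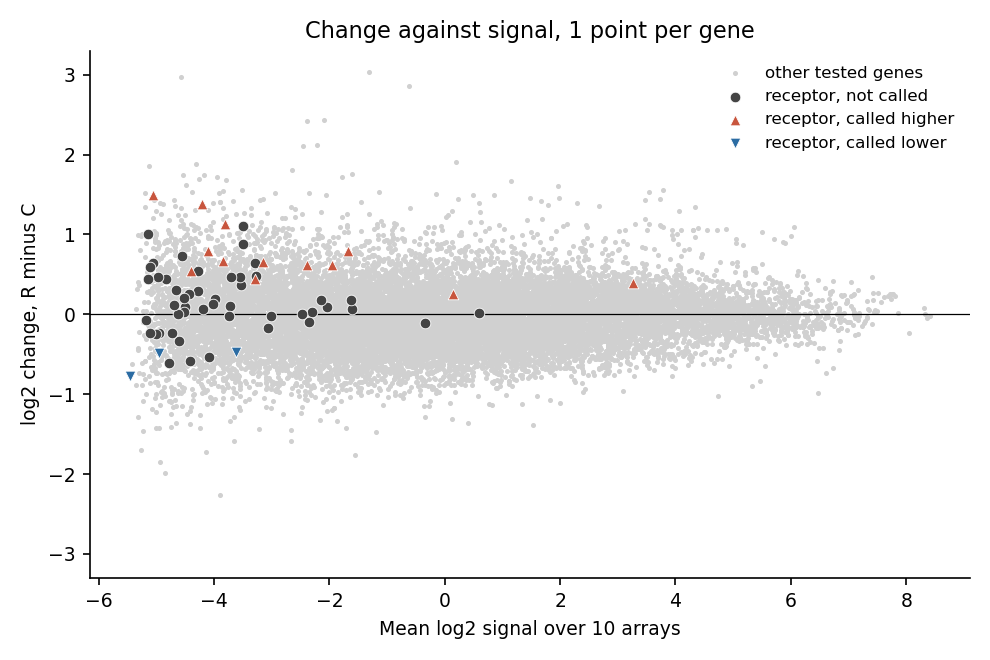
Log2 change, R minus C (vertical axis), against the mean log2 signal over 10 arrays (horizontal axis), 1 point per tested gene. The 64 receptors (large symbols) lie mostly at signals below −1, with 13 called higher (red triangles), 3 called lower (blue triangles) and 48 not called (dark circles) among the other tested genes (grey).

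Array by array, the members' median signal was −4.11, −4.54, −3.87, −3.95 and −4.03 in C and −3.83, −3.77, −3.65, −3.82 and −3.84 in R. On this scale all 5 R arrays lay above the 5 C arrays, and C replicate 2 lay lowest. With the array median as reference the member medians of the groups overlap, and the members' median change was −0.012. Relative to the median of the other genes in their signal range, the member medians lay between −1.32 and −0.68 in C. In R they lay between −0.66 and −0.45. The median of the other genes in the members' signal range stayed between −3.22 and −3.15 on every array. C replicate 2 gave the lowest of 10 values in 33 of 64 members and in 8 of the 13 that were called higher. Its median spot signal before scaling was 61.4, against 82.7 to 106 on the other arrays, and its weight in a fit with array weights was 0.113, the lowest of 10. The part of that array's signal scale in the direction of the members was not tested beyond the fits without it and with weights.

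**Figure D3:**
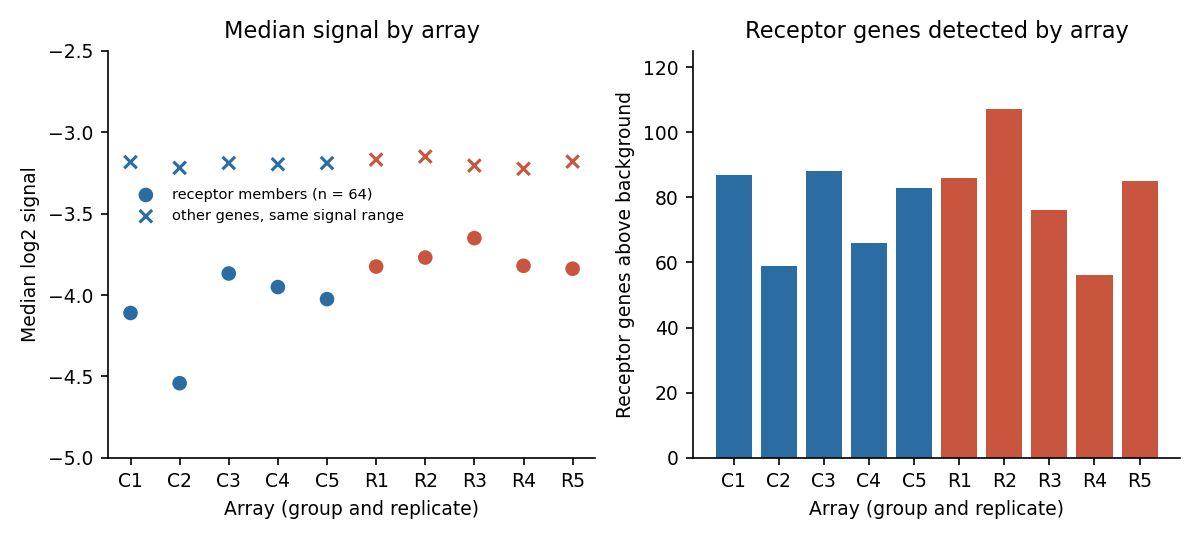
Left, median log2 signal on each array of the 64 receptor members (circles) and of 4790 other genes in the same signal range (crosses), for C (blue) and R (red). Right, number of receptor genes well above background on each array, from 56 on R replicate 4 to 107 on R replicate 2, with the lowest member median at C replicate 2.

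Groups did not overlap in 13 members, with R above C in 12 and below it in 1. That is 20.3% of the members, against 29.1% of all tested genes (12.6% with R above C and 16.5% with R below C) and 19.5% of the other genes in their signal range (8.43% and 11%). Of the 16 called members 11 had groups that did not overlap. Past the study's own fold limit of 1.5 were 9 of the called members that were higher and 1 that was lower. The share of all tested genes, or of other genes in that signal range, past the same limit was not taken. The count is thus a description of the members alone. With normexp background correction, which adds an offset of 50 to each spot, 1 of the 16 passed that limit, and 12 of the 16 changes were over 1.5 times smaller on the log2 scale. The folds of dim members thus depend on the background correction, and the normexp value stands beside each of these 12.

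Among the genes called higher, Olfr1500 had the largest difference and the least support. It was at −5.39, −6.99, −5.43, −5.12 and −6.09 in C and at −4.02, −3.73, −3.99, −3.63 and −6.21 in R, and it passed the background mark on 1 array of C and 4 of R. The 4 R arrays of slide 1 were high, and R replicate 5 lay within the C range. It reached the detection limit through R, the group in which it is high, so its difference of 1.49 (adjusted p = 0.0445) is given as a description. The difference was 0.35 with normexp correction and −0.66 within slide 2. The adjusted p was above 0.05 without any 1 of C replicates 1, 2, 3 and 5 or R replicates 1 to 4 (adjusted p from 0.0529 to 0.0977), with the slide as a block (0.0887), with no filter (0.0855), with quantile normalisation (0.0707) and with the array median (0.0513).

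Olfr161 was at −4.68, −6.63, −3.99, −4.72 and −4.47 in C and at −3.44, −3.79, −3.64, −3.51 and −3.22 in R. Every R array was above every C array, and C replicate 2 was far below the rest. Olfr161 was detected on 3 arrays of C and 5 of R. Its value on C replicate 2 lay below −5.39, the lowest signal marked as well above background on that array. The rise was 2.59-fold (95% interval 1.38 to 4.88, adjusted p = 0.0257), and the difference was 2.06 within slide 1 and 1.17 within slide 2. With normexp correction the change was 0.52, or 1.43-fold, against 1.38, and with array weights it was 0.90. Without R replicate 1, 4 or 5 the adjusted p was 0.0540, 0.0516 or 0.0561, and with no filter it was 0.0533. Olfr538 was at −3.66, −5.01, −4.40, −4.12 and −4.74 in C and at −3.01, −3.17, −3.58, −3.24 and −3.25 in R. It was detected on 4 arrays of C and 5 of R, and the highest C value lay just under the lowest R value. It rose 2.20-fold (95% interval 1.54 to 3.13, adjusted p = 0.00588), with differences of 1.09 and 1.17 within the 2 slides. With normexp correction its change was 0.51, or 1.42-fold, against 1.13, and within slide 1 alone it was not called (adjusted p = 0.0599).

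Olfr1443 and its neighbour Olfr1444 on chromosome 19, both of the MOR202 family, were each called higher. Olfr1443 was at −1.84, −3.06, −1.87, −1.87 and −1.77 in C and at −1.24, −1.19, −1.43, −1.26 and −1.31 in R. The R arrays stood close together above all C arrays, and C replicate 2 stood alone below. The rise was 1.74-fold (95% interval 1.23 to 2.45, adjusted p = 0.0207), and the difference was 0.55 without C replicate 2 against 0.80 with it. Olfr1444 was at −4.28, −4.92, −4.49, −4.64 and −5.01 in C and at −4.32, −4.09, −4.11, −3.84 and −4.28 in R, and its groups met at the edge. It rose 1.45-fold (95% interval 1.16 to 1.83, adjusted p = 0.0193), but was not called with normexp background correction (change 0.20, adjusted p = 0.0664), within slide 1 (0.0974), with quantile normalisation (0.136) or the array median (0.0837). The family's other member, Olfr1466, went the other way, from −4.11 ± 0.34 in C to −4.70 ± 0.45 in R (SD, n = 5 each), and did not pass (adjusted p = 0.0623).

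Olfr699, a gene of the MOR283 family, was at −4.39, −4.06, −4.14, −4.12 and −4.14 in C and at −3.36, −3.12, −3.64, −3.47 and −3.94 in R. All R arrays were above all C arrays. It rose 1.59-fold (95% interval 1.28 to 1.97, adjusted p = 0.00683), with a difference of 0.83 within slide 1 and 0.19 within slide 2, and a change of 0.28 with normexp correction. Olfr1294 was at −2.23, −2.71, −2.02, −2.10 and −2.24 in C and at −1.69, −1.52, −1.74, −1.66 and −1.60 in R, again without overlap. Its rise was 1.54-fold (95% interval 1.27 to 1.85, adjusted p = 0.00520), and its difference was 0.82 and 0.53 within slides 1 and 2 and 0.40 with normexp correction.

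The bright genes Olfr1033 and Olfr571 had small changes. Olfr1033 rose 1.31-fold (95% interval 1.17 to 1.48, adjusted p = 0.00488), with a difference of 0.40 within slide 1 and 0.38 within slide 2. The probe of the curated Olfr1033 transcript was above background on 5 arrays. It averaged −4.75 ± 0.24 in C and −4.80 ± 0.65 in R (SD, n = 5 each), so the probes of this gene disagreed. Averaged over both probes the change was 0.17 (adjusted p = 0.431), and with the array median it was 0.19 (adjusted p = 0.126). Olfr571 rose 1.19-fold (95% interval 1.07 to 1.32, adjusted p = 0.0165) and was not called with the array median (0.698), with no filter (0.0524) or within slide 1 (0.0795).

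**Figure D4:**
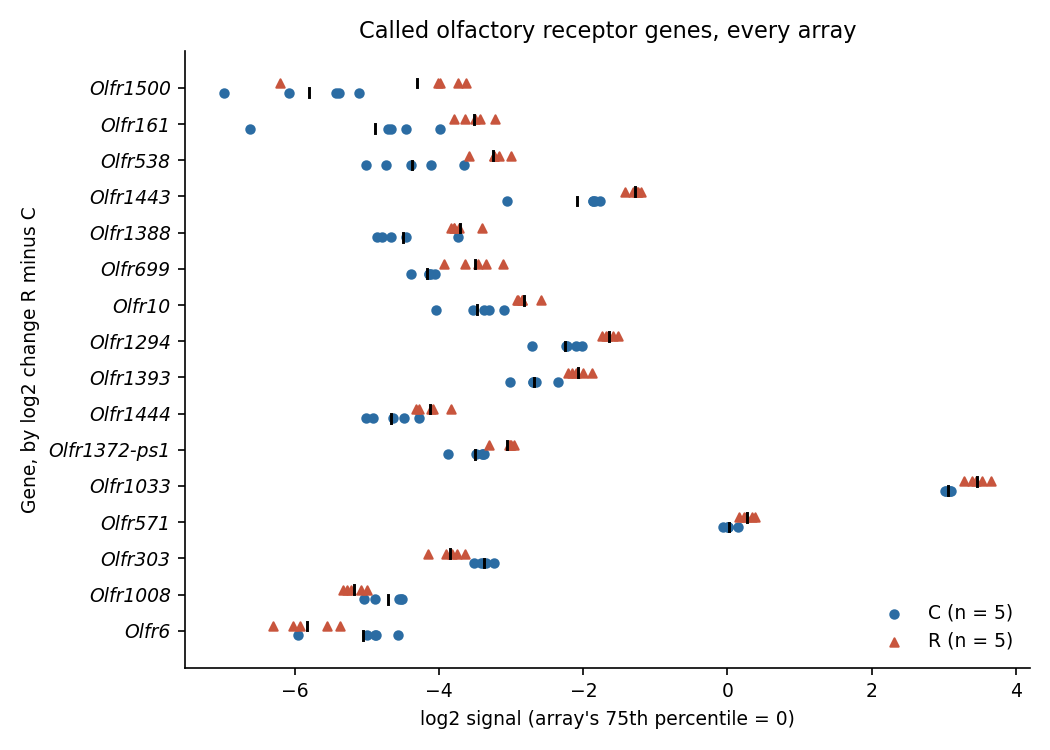
Log2 signal (horizontal axis, 75th percentile of the array at 0) of the 16 called receptor genes on every array, with C as blue circles, R as red triangles and a black tick at each group mean (n = 5 each). The R means lie to the right in the upper 13 genes and to the left in Olfr303, Olfr1008 and Olfr6. The arrays of both groups overlap in 5 of the 16, namely Olfr1388, Olfr1444, Olfr1500, Olfr1008 and Olfr6.

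The 3 genes called lower, Olfr303, Olfr1008 and Olfr6, had mean signals of −3.62, −4.95 and −5.45, beside −4.05 at the members' median. Olfr303 was at −3.52, −3.42, −3.40, −3.35 and −3.24 in C and at −3.82, −3.75, −3.65, −4.16 and −3.91 in R. It was the only member with every R array below every C array. It fell 1.39-fold (95% interval 1.19 to 1.61, adjusted p = 0.00662), and the difference was −0.37 within slide 1, where it was not called (adjusted p = 0.0956), and −0.58 within slide 2. With normexp correction its change was −0.29. Olfr1008 was at −4.51, −4.56, −4.53, −4.89 and −5.05 in C and at −5.09, −5.01, −5.22, −5.28 and −5.34 in R, detected on 3 arrays of C and 2 of R. Its groups overlapped by a single C array, and it fell 1.4-fold (95% interval 1.16 to 1.68, adjusted p = 0.0134), with a change of −0.18 and an adjusted p of 0.0583 after normexp background correction.

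Olfr1008 was also the 1 receptor gene in the authors' deposited table of 2266 probes, at a log2 ratio of −0.44 with a p of 0.00771 and a q of 0.515. In that table R replicate 1 was averaged with the controls and C replicate 5 with the test arrays. The labels say otherwise and were followed here. Olfr6 was at −4.87, −4.89, −5, −5.96 and −4.57 in C and at −5.55, −5.37, −6.30, −5.93 and −6.03 in R, passing the background mark on 4 arrays of C and 1 of R. It reached the detection limit through C, the group in which it is high, so its difference of −0.78 (adjusted p = 0.0393) is given as a description, and it was −0.26 with normexp correction. The adjusted p of Olfr6 was above 0.05 without any 1 of C replicates 1, 2, 3 and 5 or R replicates 1, 3, 4 and 5 (adjusted p from 0.0522 to 0.0862), with no filter (0.0786), with array weights (0.0915) and with a variance trend (0.0551).

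The 48 members that were not called had changes from −0.61 to 1.11, 34 of them positive, with adjusted p from 0.0518 to 0.962. The highest change among them belonged to Olfr1508, the receptor MOR10, which lies inside the T cell receptor alpha locus on chromosome 14. It was at −3.42, −5.98, −3.73, −3.03 and −4.09 in C and at −2.49, −3.07, −3.20, −3.10 and −2.84 in R (adjusted p = 0.0816). C replicate 2 was lowest and C replicate 4 lay among the R arrays. Olfr871 had the lowest adjusted p, 0.0518, with R between −3.35 and −2.85 above C between −5.34 and −3.57. Olfr705 had the widest R group, since R replicate 3 was at −1.04 and the other 4 R arrays between −5.29 and −4.77. These genes were picked out after their values were seen.

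Near-identical copies are common in this family and can share signal, so the members of a block may not be measured apart. With that limit, the MOR256 family gave 8 members of 47 genes on the array, more than any other family. Its receptors include several that respond to many odorants. On chromosome 11 it had 6 members, all with a positive change, and 4 of them were called higher, with a median change of 0.55. The same 6 genes had no call in the lower direction, and the background for higher calls was 14.9% of all tested genes. Because the block was picked out after its values were seen, the count is a description.

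Within this block, Olfr1393, a receptor of the kidney tubule that has been linked to glucose handling, was at −2.65, −3.02, −2.35, −2.70 and −2.70 in C and at −1.88, −2.16, −2.11, −2.21 and −2.01 in R. All R arrays were above all C arrays. It rose 1.53-fold (95% interval 1.28 to 1.83, adjusted p = 0.00478), with differences of 0.75 and 0.58 within slides 1 and 2, and 0.41 with the array median. Olfr10 was at −3.38, −4.04, −3.11, −3.31 and −3.53 in C and at −2.58, −2.85, −2.91, −2.92 and −2.85 in R. The groups again did not overlap, and the rise was 1.57-fold (95% interval 1.23 to 2, adjusted p = 0.0116), with a change of 0.38 after normexp correction.

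Olfr1388 was at −4.46, −4.67, −3.74, −4.79 and −4.87 in C and at −3.80, −3.72, −3.84, −3.80 and −3.41 in R, detected on 3 arrays of C and 5 of R. C replicate 3 lay among the R arrays. The rise was 1.73-fold (95% interval 1.27 to 2.35, adjusted p = 0.0133), and it was not called with array weights (0.0586). With normexp correction its change was 0.25 against 0.79. Olfr1372-ps1, which the reference lists as a transcribed pseudogene, was at −3.40, −3.88, −3.40, −3.38 and −3.49 in C and at −3.01, −2.97, −3.03, −3.3 and −3.01 in R. It lies outside the rule for named genes and was chosen after its values were seen. Its R arrays were all above its C arrays, and it rose 1.36-fold (95% interval 1.15 to 1.62, adjusted p = 0.0127), with a change of 0.29 after normexp correction and 0.24 with quantile normalisation or the array median. A further probe of it had a like difference of 0.45 with a wider spread, and averaged over both the adjusted p was 0.124.

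The 2 members of the family on other chromosomes were Olfr124, given above, and Olfr1368 on chromosome 13, with a difference of −0.03 (adjusted p = 0.869). Olfr1382 and Olfr1383 end the block and did not pass without a slide block. With it the differences were 0.60 (adjusted p = 0.0218) and 0.62 (adjusted p = 0.0308). Olfr1382 averaged −3.51 ± 0.42 in C and −3.03 ± 0.08 in R (SD, n = 5 each, adjusted p = 0.0538). Olfr1383 averaged −3.77 ± 0.50 in C and −3.31 ± 0.13 in R (adjusted p = 0.102), and in both genes C replicate 2 was lowest. The block from Olfr1393 to Olfr1382 holds 13 array genes, all of the MOR256 family. Besides the 5 members, Olfr1384 was above background on 4 arrays, Olfr1387 on 3 and Olfr1392 on 1, and 5 genes were above it on none. Members were thus interspersed with genes below the detection limit, some of these in runs.

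**Figure D5:**
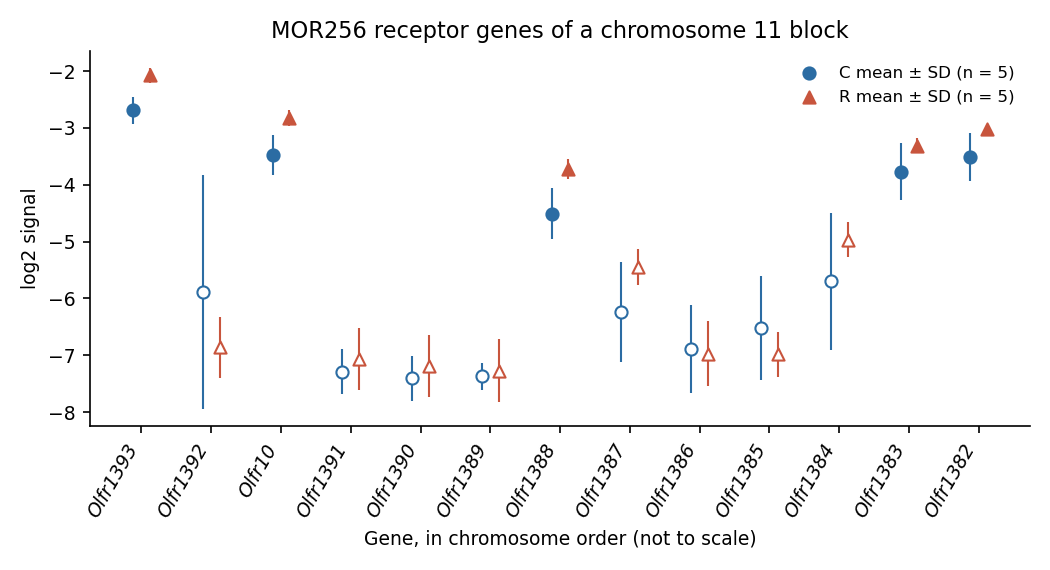
Mean log2 signal ± SD (vertical axis, n = 5 per group) of the 13 MOR256 genes of a chromosome 11 block in chromosome order, for C (blue circles) and R (red triangles). Filled symbols are the 5 members and open symbols the genes above background on fewer than 5 arrays, and the filled R means lie above the C means in all 5.

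The MOR283 family on chromosome 7 had 5 members of 12 array genes, the neighbours Olfr699, Olfr700 and Olfr701 and the neighbours Olfr705 and Olfr706. All 5 changes were positive, with a median of 0.47, and Olfr699 alone was called (20% of the 5, beside 35.6% of all tested genes). Olfr701 averaged −3.94 ± 0.35 in C and −3.46 ± 0.24 in R (SD, n = 5 each, adjusted p = 0.0548), and with a slide block the difference was 0.61 (adjusted p = 0.0169). Olfr706 was at −4.63 ± 0.20 and −4.62 ± 0.17, a difference of 0.01 ± 0.11 (SE, adjusted p = 0.956). The other 7 genes of the block were above background on at most 1 array.

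The 5 members of chromosome 17 lie among 46 array receptor genes beside the major histocompatibility complex, of which 32 were on no array. They are Olfr112, Olfr113, Olfr114 and Olfr128 of the MOR218 family and Olfr124 of MOR256. All 5 were above background on 10 arrays, and 0 of 5 were called, beside 35.6% of all tested genes. Their median change was 0.17. With a slide block, which called 51.5% of all tested genes, Olfr113 (0.53, adjusted p = 0.0411) and Olfr124 were called. Without it the lowest adjusted p was that of Olfr113, at 0.152, with a difference of 0.37 ± 0.20 (SE). No test compared this block with that of chromosome 11.

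Of the smaller families, MOR119 had 3 members of 4 genes (Olfr212, Olfr213 and Olfr215 on chromosome 6). None of them was called, beside 35.6% of all tested genes. MOR171 had 3 members of 37 genes (Olfr27, Olfr930 and Olfr965 on chromosome 9), all dim, with positive changes between 0.45 and 1 that did not pass without a slide block. With it Olfr27 (1.31, adjusted p = 0.0254) and Olfr965 (0.89, adjusted p = 0.0168) were called, beside 51.5% of all tested genes. Altogether 42 of 223 families had a member. The 7 class I members were 5.83% of 120 class I genes, and the 56 class II members were 5.96% of 940 class II genes. Of the 7 class I members 1 was called, Olfr571 (14.3%), and of the 56 class II members 15 (26.8%), beside 35.6% of all tested genes. With 7 class I members, no contrast between the classes is read from these counts.

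Members occurred on 16 chromosomes. Chromosome 7 had 16 members of 233 array genes and chromosome 2 had 7 of 278, while chromosome 11 had 9 of 80. As a description, 16 of 64 members (25%) had another member as the next receptor gene on the array's list along the chromosome, against 102 of 1016 other receptor genes (10%). Gene models of 39 of 64 members (60.9%) were under 1100 bases and a whole number of codons long, as a bare coding sequence is. Among all receptor genes on the array, 778 of 1080 (72.0%) had such a model. Where models overlap, the array cannot say which gene gives the signal unless the probe lies in one alone. Olfr560 shares its locus with Olfr78, whose own probe was above background on no array, and Olfr330 overlaps the pseudogene Gm21927.

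Of 12 receptors known from tissues outside the nose, 2 were members. These were Olfr544 and Olfr1393, and only the latter was called. Olfr558, described in blood vessels and kidney, was above background on 1 array. The other 9 were above background on no array. Among them was Olfr16, the receptor MOR23 that has been studied in mouse sperm, at −7.02 ± 0.60 in C and −6.72 ± 0.24 in R (SD, n = 5 each).

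Further genes at 0 arrays were Olfr78, a short-chain fatty acid receptor of kidney and carotid body, at −6.95 ± 0.76 and −6.88 ± 0.42, and Olfr2, the octanal receptor I7, at −6.78 ± 1.04 and −6.98 ± 0.56. Olfr15, Olfr90, Olfr691, Olfr73, Olfr43 and Olfr29-ps1 had group means between −7.50 and −6.21. None of these genes reached the detection limit, so their differences were not tested in the main fit. Whether these probes recognise their transcripts was not tested.

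Genes that act with these receptors in the nose were detected in part. Of 20 genes of olfactory transduction, 15 were tested, 2 higher and 4 lower, beside 14.9% higher and 20.6% lower over all tested genes. That is near the background share. Gnal, which encodes the Golf alpha subunit, averaged −4.16 ± 0.52 in C and −3.65 ± 0.22 in R (SD, n = 5 each) and did not pass (adjusted p = 0.0981). Adcy3, the adenylyl cyclase of the olfactory cilium, was above background on no array. Adcy10, the soluble adenylyl cyclase that sperm need for motility, was 4.63 ± 0.21 and 4.91 ± 0.08 (adjusted p = 0.0539), or 0.00922 when its probes were averaged.

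Among the channel genes, Cnga2 was above background on 3 arrays, while Cnga4 and Cngb1 were on all 10 and did not pass (adjusted p = 0.362 and 0.973). The phosphodiesterase gene Pde4a, whose product breaks down cyclic AMP, rose 1.83-fold, from 0.94 ± 0.26 to 1.82 ± 0.16 (SD, n = 5 each, adjusted p = 0.00212). The fall of Gnb1, a G protein beta subunit, was 1.28-fold, from 0.69 ± 0.04 to 0.34 ± 0.09 (adjusted p = 0.00343). Gnas, the stimulatory alpha subunit found in most tissues, fell 1.42-fold (adjusted p = 0.0105). Pde1c rose 1.22-fold (adjusted p = 0.0264) but not with the array median (0.375), with no filter (0.0676) or without R replicate 3 or 4 (0.0567 and 0.0622). Gng13, a G protein gamma subunit of olfactory neurons, fell 1.65-fold (adjusted p = 0.0400), and Ric8b, the exchange factor of Golf, fell 1.22-fold (adjusted p = 0.0459).

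Of 7 trafficking genes, whose products bring receptors to the membrane, 5 were tested, with 1 lower (20.6% over all tested genes), and Reep1 fell 1.60-fold, from 2.54 ± 0.43 to 1.87 ± 0.16 (SD, n = 5 each, adjusted p = 0.0187). Rtp1 was above background on no array, and Rtp2 on 6. Of 4 tested desensitisation genes 1 was called, against 35.6% of all tested genes. It was Arrb2, which encodes beta-arrestin 2 and fell 1.38-fold (adjusted p = 0.0232), an adjusted p that was 0.0517 over the mean of its 3 probes and 0.0536 with no filter. Kinase genes Grk2 and Grk3 did not pass.

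Of 12 genes that act in the choice of a single receptor, 11 were tested, 3 higher and 3 lower, beside 14.9% and 20.6% of all tested genes. Nothing particular to the list is read from these counts. Cbx5, which encodes a heterochromatin protein, rose 1.43-fold, from −0.04 ± 0.06 to 0.47 ± 0.04 (SD, n = 5 each, adjusted p = 0.000997). Ebf2 and Ebf3, transcription factor genes of the O/E family, differed in direction. Ebf2, above background on 2 C and 4 R arrays and so tested mainly through R, had a difference of 1.24 (adjusted p = 0.0115), or 0.45 with normexp correction. Ebf3 fell 1.45-fold (adjusted p = 0.00788), with a change of −0.27 after normexp correction. Atf5 rose 1.24-fold (adjusted p = 0.00741), a call that was lost with the array median (0.434), and Ldb1 and Lbr were called lower, Ldb1 with an adjusted p of 0.0519 over the mean of its probes. Lhx2 and Kdm1a did not pass. Of 14 trace amine receptor genes, the second family of odorant receptors, 0 were tested and 12 were above background on no array.

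Of 8 markers of olfactory sensory neurons, Omp, Stoml3, S100a5 and Adcy3 were above background on no array and Cnga2 on 3. The other 3, Gng8, Cngb1 and Gnal, were above it on all 10 arrays, and 0 of them were called by limma. The mean of those 3 lay between −2.32 and −1.97 in C and between −2.09 and −1.87 in R. Round spermatid markers, which define the tissue at this age, were all present, and 0 of 8 were called, with a mean of 5.77 ± 0.09 in C and 5.71 ± 0.05 in R (SD, n = 5 each).

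Markers of other testis cells were called in part, where 20.6% of all tested genes were lower and 14.9% higher. Spermatocyte markers had 4 of 7 lower, with a mean between 3.94 and 4.24 in C and between 3.67 and 3.77 in R. Spermatogonial markers had 3 of 5 lower and 1 higher, Sertoli markers 3 of 5 lower and 1 higher, Leydig markers 2 of 6 lower and macrophage markers 4 of 6 lower. The mean levels of the Sertoli markers (C 1.90 to 2.50, R 1.92 to 2.21) and the Leydig markers (C 0.31 to 1.21, R 0.14 to 0.74) overlapped between the groups, and those of the spermatogonial markers did not (C −0.10 to 0.39, R −0.48 to −0.29). The macrophage markers lay between −1.34 and −0.75 in C and between −1.84 and −1.25 in R. The Sertoli gene Amh was above background on no array. The part of these cell types in the receptor changes was not tested.

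The 10 arrays came from 2 slides, slide 1 with C replicates 1 and 2 and R replicates 1 to 4, and slide 2 with C replicates 3 to 5 and R replicate 5. With the slide as a block 29 members were called, 26 higher and 3 lower, beside 51.5% of all tested genes, and 15 of the 16 main calls were among them. Within slide 1 the members' median change was 0.39 with 18 calls, beside 39.6% of all tested genes, and Olfr1444, Olfr303, Olfr538 and Olfr571 were not among them. Within slide 2, where the R group is 1 array whose spread is assumed to be that of the others, it was 0.21 with 0 calls by limma and 19 members at an unadjusted p under 0.05. Grouped as in the authors' deposited table, 0 members were called by limma and 4 had an unadjusted p under 0.05. Without the 2 arrays that the table groups otherwise, 7 members were called, beside 15.9% of all tested genes.

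Upstream sequence of the members was looked at as a description. Windows of 250 bases before the annotated start, from RefSeq on the build GRCm38.p6, were found for 58 of 64 members. In 40 of these (69.0%) the annotated start is itself an ATG, as in 627 of 859 other receptor genes (73.0%) and in 6.74% of all 27025 windows, so most windows lie before the coding sequence and may not be promoters. Each motif was searched on both strands of these windows. A match describes the letters and is not a bound site.

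The full cyclic AMP response element TGACGTCA, the site of the CREM factor of spermatids, occurred in 1 member window (1.72%), in 0 of 859 other receptor windows and in 1.56% of all windows. Its core TGACG occurred in 5.17%, 4.31% and 17.6%. The TATA box TATAAA occurred in 34.5% of member windows, 39.1% of other receptor windows and 12.9% of all windows. The O/E site CCCNNGGG occurred in 6.90%, 2.44% and 11.7%, the homeodomain site TAATTA in 17.2%, 17.8% and 4.98%, and the X-box core GTTGCC of the RFX factors in 5.17%, 3.49% and 10.5%. In the 18 member windows whose start is not an ATG, the O/E site occurred in 22.2% (6.03% of 232 such windows of other receptor genes and 12.1% of all such windows), the homeodomain site in 11.1% (18.1% and 4.49%), the X-box core in 11.1% (3.02% and 10.4%) and the TATA box in 22.2% (31.5% and 11.8%). With 18 windows, 11.1% stands for 2 windows and 22.2% for 4.

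Windows of 4 members whose annotated start is not an ATG are shown, namely the brightest gene of the MOR202 pair that rose, the gene with the clearest fall, the azelaic acid receptor that was alike in both groups, and the gene with the full response element. They run 5′ to 3′ on the gene's strand up to the base before the start, with motif matches in capitals. The first holds an O/E match from position −126, the second a TATA match on the other strand from −176, the third X-box cores from −181 and −14, and the fourth the response element from −51, each counted back from the start. The coordinates are chr19:12677916-12678165 on the plus strand, chr7:86395536-86395785 on the minus strand, chr7:102488308-102488557 on the minus strand and chr11:58570569-58570818 on the minus strand.
Olfr1443: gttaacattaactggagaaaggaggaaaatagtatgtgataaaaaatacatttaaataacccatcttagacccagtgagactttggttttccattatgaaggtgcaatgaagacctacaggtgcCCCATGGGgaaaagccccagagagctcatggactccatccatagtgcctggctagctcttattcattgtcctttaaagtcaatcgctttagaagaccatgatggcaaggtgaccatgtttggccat
Olfr303: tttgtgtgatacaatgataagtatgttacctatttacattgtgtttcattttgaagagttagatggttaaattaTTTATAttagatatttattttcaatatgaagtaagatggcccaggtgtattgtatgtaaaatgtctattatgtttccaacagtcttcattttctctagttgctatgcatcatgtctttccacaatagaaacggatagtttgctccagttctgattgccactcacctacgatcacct
Olfr544: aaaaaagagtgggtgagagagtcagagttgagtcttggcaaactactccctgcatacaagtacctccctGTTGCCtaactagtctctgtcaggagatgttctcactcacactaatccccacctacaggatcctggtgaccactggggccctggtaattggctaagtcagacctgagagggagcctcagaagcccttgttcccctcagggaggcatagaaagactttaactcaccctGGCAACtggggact
Olfr224: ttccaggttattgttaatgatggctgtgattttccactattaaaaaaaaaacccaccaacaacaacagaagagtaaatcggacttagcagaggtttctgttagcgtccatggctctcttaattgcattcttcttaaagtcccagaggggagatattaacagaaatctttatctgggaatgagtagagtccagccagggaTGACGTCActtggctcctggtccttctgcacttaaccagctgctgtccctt

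Olfr224, a dim member of the MOR275 family on chromosome 11, was detected on 3 arrays of C and 2 of R. It was at −5.23, −5.33, −4.72, −5.13 and −4.56 in C and at −5.38, −5.18, −5.62, −5.53 and −4.44 in R. The groups overlapped, and the difference was −0.24 ± 0.23 (SE, adjusted p = 0.430). Olfr1443 was the only gene called higher with a window whose start is not an ATG, since 10 of the 11 windows of such genes began at one.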

How the data were processed

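Messenger RNA of 10 single testes was measured on 1-colour Agilent arrays, 1 per animal. The submitters' processing notes name Agilent Feature Extraction 12.0.3.1, whose scanner output the authors deposited. Its processed intensity has the background taken off within each array, with no step between arrays, and each spot carries flags for background, saturation and outliers, per the file headers. For 2266 probes there is a table in which the authors give scaled intensity, a log2 ratio, a p-value and a q-value. Another 10 columns of that table, also per sample, stayed unused.

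Control and outlier spots were left out, spots of a probe were averaged, and probes were named by accession through RefSeq's gene table of GRCm38.p6, while the headers name mm9, so no probe coordinates are given. The test of R against C was that of limma 3.58.1 (run in R 4.3.3, with eBayes, 2-sided, adjusted by Benjamini-Hochberg) over the 33851 probes well above background on at least 5 arrays, of which 13059 were called at an adjusted p under 0.05. Keeping the brightest tested probe of each gene left 16738 genes. Precision is limited by how few arrays there are. The code was also tested on simulated data.

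The members, lists, tests and alternatives were chosen with earlier results of these data known. The rule for named genes took the 10 brightest members, up to 10 called members in each direction, 12 receptors known outside the nose, up to 4 genes of smallest p of each list, and up to 3 genes at each side of the detection limit. Genes outside it are named to complete a family or block. Normexp correction used the median spot signal with an offset of 50. The alternatives also covered scaling, filters, slide, weights, probes and each animal left out.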

Additional observations from a re-analysis of the deposited data

Results flagged for a closer look

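In groups of 5 arrays, a single array stood apart from the other 4 in 17 of 128 member groups by Dixon's criterion at a ratio of 0.71. About 1 in 20 separate groups of normally distributed values would pass it. The 128 groups share the same 10 arrays, and the share over other genes was not taken. No excess particular to the receptors is thus read from the count. C replicate 2 was the array in 8 of the 17.

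In C, replicate 2 was lowest for Olfr1443 at −3.06 (others −1.87 to −1.77), for Olfr161 at −6.63 (others −4.72 to −3.99), for Olfr1372-ps1 at −3.88 (others −3.49 to −3.38), for Olfr871 at −5.34 (others −3.65 to −3.57) and for Olfr39 at −4.7 (others −3.54 to −3.13). The same array was highest for Olfr544 at 1.05 (others 0.39 to 0.57), for Olfr722 at −1.44 (others −2.32 to −2.17) and for Olfr706 at −4.29 (others −4.77 to −4.63). C replicate 1 was lowest for Olfr699 at −4.39 (others −4.14 to −4.06), and C replicate 4 for Olfr930 at −6.89 (others −5.26 to −4.83).

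In R, replicate 1 was highest for Olfr10 at −2.58 (others −2.92 to −2.85), replicate 2 was highest for Olfr544 at 0.82 (others 0.53 to 0.58), and replicate 4 was lowest for Olfr1372-ps1 at −3.3 (others −3.03 to −2.97). R replicate 3 was highest for Olfr705 at −1.04 (others −5.29 to −4.77) and lowest for Olfr1513 at −4.49 (others −4.09 to −4). R replicate 5 was highest for Olfr1388 at −3.41 (others −3.84 to −3.72) and lowest for Olfr1500 at −6.21 (others −4.02 to −3.63). What set these arrays apart was not tested.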

How the results depend on the processing

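Leaving out 1 array at a time, 13 to 18 members were called (16 with all), 9245 to 13550 probes were called and the members' median change ran from 0.16 to 0.25. The median change was −0.012 with the array median as reference and 0.39 within slide 1. Called members numbered 29 with a slide block, 0 on slide 2 alone, 0 in the authors' table grouping and 7 without the 2 arrays grouped otherwise there. Called probes, 13059 in all, numbered 0 within slide 2 (8750 at an unadjusted p under 0.05), 0 in the authors' table grouping (2567) and 6116 without those 2 arrays, in each case by limma. The flag for signals positive and significant, a looser mark, raised the median number of receptor genes detected per array from 84 to 296.5, and members above background on all 10 arrays numbered 31. The causes were not tested.

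Changes of sign occurred in genes that were not called and in Olfr1500. Olfr112 went from 0.07 to −0.035 with quantile normalisation, −0.14 with the array median, −0.26 within slide 2 and −0.22 with array weights, and from −0.13 to 0.20 over left-out arrays. Olfr722 went to −0.014, −0.11 and −0.094 with quantile normalisation, the array median and slide 1, and from −0.082 to 0.26 over left-out arrays. Olfr124 went to −0.032 with the array median and −0.023 with array weights, and Olfr279 to −0.034 with the array median. Olfr544 went to −0.19 with the array median, −0.090 with a slide block, −0.19 within slide 1, −0.057 in the authors' table grouping and −0.028 without the 2 arrays, and from −0.042 to 0.13 over left-out arrays. Olfr1500 was −0.66 within slide 2. No paired analysis was possible because the labels give no pairing of C with R animals. Members near background are the least precise, since their signal lies close to the limit of detection.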
